A study of Homo sapiens with 4 samples.

Results

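The interferon-stimulated genes are a list of 33 genes that cells switch on when they sense interferon. They were chosen by name, with earlier results of these data known. Of these, 32 were matched to a probe set listed for 1 gene only, among 19775 genes measured on the same arrays. STAT2 was not matched to such a probe set and is not analysed here. Each gene is represented by its probe set with the highest mean signal over all 4 arrays. The samples came from 2 sublines of THP-1, a human monocytic leukemia cell line, that express either Siglec-14, a receptor on myeloid cells that passes on an activating signal, or Siglec-5, its inhibitory partner. The sublines serve as models of monocytes with and without a functional SIGLEC14 gene. Cells of each subline were incubated for 6 h with heat-killed nontypeable Haemophilus influenzae (NTHi) strain 2019 at 100 bacteria per cell, or without bacteria. The 4 conditions are Siglec-14,NTHi[+], Siglec-14,NTHi[−], Siglec-5,NTHi[+] and Siglec-5,NTHi[−], with 1 array and no replicate for each.

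Type I interferons bind a receptor of 2 chains, IFNAR1 and IFNAR2, whose attached kinases JAK1 and TYK2 phosphorylate STAT2. With IRF9 it is part of a complex, ISGF3, that binds the interferon-stimulated response element (ISRE) in front of most genes of the list, while interferon gamma acts mainly through the gamma-activated site (GAS). The products block viral entry, translation and replication or tag proteins with ISG15, and some of the genes, IRF1 and IRF7 among them, amplify the response. In monocytes, Toll-like receptor 4 can lead to the same genes when its adaptor TICAM1 (TRIF) engages TBK1 and IRF3 and interferon beta is released, next to the NF-κB branch that turns on genes of inflammation.

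The regulatory words of the list could be read in the sequences in front of the genes. Promoter windows of 300 bases, 250 before and 50 after the start of transcription, were taken from RefSeq (GRCh38.p14) for 24 of the 32 measured genes. The ISRE core, searched as GAAANNGAA on both strands, was present in 19 of the 24 (79.2%), and in 9.86% of all 27305 genes with a window. The GAS core, searched as TTCNNNGAA on both strands, was present in 7 of the 24 (29.2%), and in 9.38% of all genes. The same letters can belong to both words. A consensus for NF-κB was present in 5 of the 24 (20.8%), and in 13.3% of all genes. These are matches of letters and not measured sites. The stretches printed here belong to genes that the comparisons turn on, all lie upstream of a start, and carry the words in capitals. In ISG15, IFIT1, HERC5, IFI6, ISG20 and PARP9 the capitals mark the ISRE core on either strand, and in IRF1 and IRF9 the GAS core.
ISG15, chr1:1013372-1013416 (+ strand): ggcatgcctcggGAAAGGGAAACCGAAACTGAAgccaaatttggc
IFIT1, chr10:89392496-89392541 (+ strand): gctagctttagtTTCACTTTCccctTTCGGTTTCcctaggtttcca
HERC5, chr4:88456983-88457066 (+ strand): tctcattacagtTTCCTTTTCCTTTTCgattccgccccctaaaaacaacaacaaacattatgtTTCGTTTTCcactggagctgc
IFI6, chr1:27672265-27672360 (− strand): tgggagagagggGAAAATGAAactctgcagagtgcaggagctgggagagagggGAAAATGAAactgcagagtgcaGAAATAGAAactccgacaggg
ISG20, chr15:88638935-88638967 (+ strand): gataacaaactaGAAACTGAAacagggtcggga
PARP9, chr3:122564320-122564352 (− strand): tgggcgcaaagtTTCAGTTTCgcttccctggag
IRF1, chr5:132490877-132490909 (− strand): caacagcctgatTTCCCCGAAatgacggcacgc
IRF9, chr14:24161190-24161222 (+ strand): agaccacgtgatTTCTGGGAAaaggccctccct
OAS1, IRF1, IRF9, IFI35 and XAF1 were the 5 genes with a window but no ISRE core in it. The genes IFIT2, MX2, OAS2, OASL, IRF7, USP18, GBP2 and TRIM22 were not searched.

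The values are signal intensities on a linear scale in arbitrary units. The sum of all signals lay between 12735500 and 14047100 and the median between 15.1 and 16.5 over the arrays. The ratio of the 3′ to the 5′ control probe sets lay between 1.19 and 1.21 for ACTB and between 0.974 and 1.03 for GAPDH. Because an array gives a signal also where no transcript is present, the median of all signals, 16.02, was used as a floor. Folds between single arrays that involve a signal under it are given as bounds computed against it. Log2 ratios, directions and fitted values use the signals as deposited unless stated. Among 37 genes of other tissues the median of the mean signals was 6.70. Of 14 measured monocyte markers, 12 reached the floor on at least 1 array. CD14 stayed below it on all 4 arrays, with signals of 2.04, 11.4, 1.97 and 0.808 in Siglec-14,NTHi[+], Siglec-14,NTHi[−], Siglec-5,NTHi[+] and Siglec-5,NTHi[−]. The identity of the sublines could not be checked on SIGLEC14, which is not analysed here. SIGLEC5 had signals of 19.5, 21.3, 21.6 and 4.13 in the same order and does not tell the sublines apart. Tests come from a limma fit over all 54613 probe sets that are not controls, with subline and NTHi as additive terms, 1 residual degree of freedom and Benjamini-Hochberg adjustment over all of them. The fit tests only a response shared by both sublines or a difference shared by both conditions. Its p-values rest on the variance that limma takes from probe sets of like signal. That variance reflects how far the response to NTHi differs between the sublines, and not a spread between replicate cultures.

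The genes of the list were measured at low to moderate signals. The median of their mean signals was 51.6, against 41.1 for all genes. On all 4 arrays, 22 of the 32 reached the floor, 3 (IFI44, IFI44L and IFI27) stayed below it, and 7 (ISG20, MX1, OAS2, RSAD2, GBP1, EPSTI1 and TRIM22) lay on both sides. The highest mean signals were 384 for HERC5, a ligase that attaches ISG15 to proteins, and 295 for XAF1, a gene that promotes apoptosis. For genes with a geometric mean signal of 64 to 256, the log2 ratio of NTHi[+] to NTHi[−] was compared over 3445 genes. Its SD was 0.30 in Siglec-14/THP-1 and 0.33 in Siglec-5/THP-1. For the 3100 genes between 16 and 64 it was 0.61 and 0.66.

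**Figure D1:**
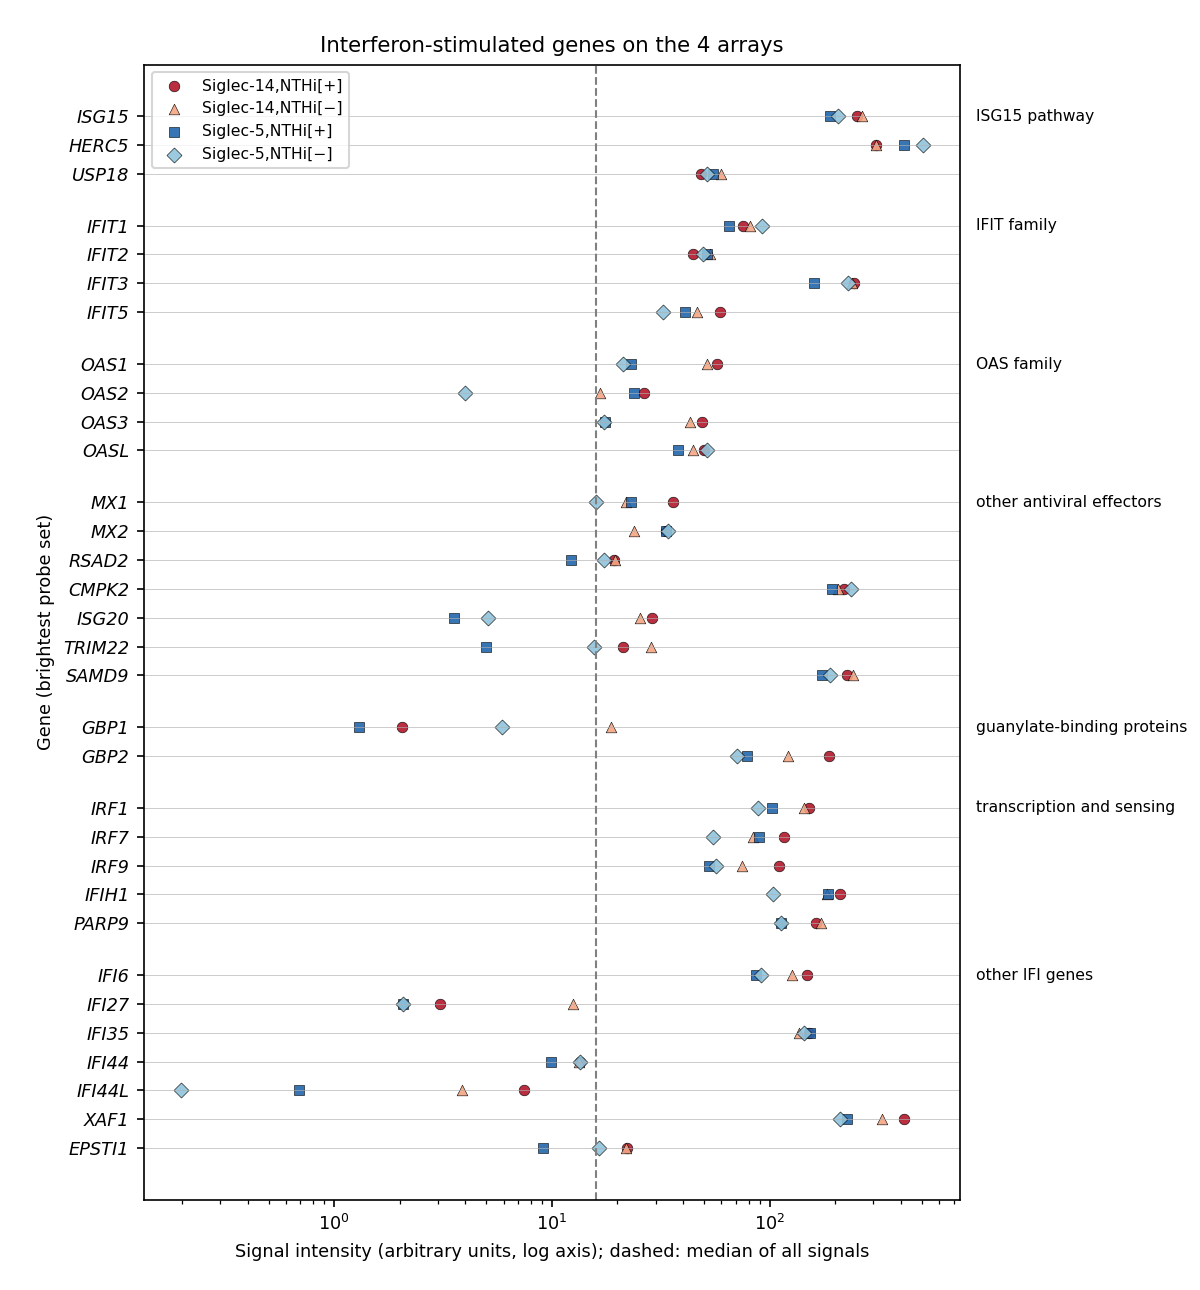
Signal intensity (log axis, arbitrary units) of the 32 interferon-stimulated genes, grouped by role, with 1 marker for each of the 4 arrays and a dashed line at the median of all signals, 16.02. The 4 markers of most genes lie close together, and the markers of ISG20, OAS1 and OAS3 split by subline.

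No gene of the list passed the test for NTHi. In the shared fit, 0 passed as higher and 0 as lower at an adjusted p under 0.05. Over all genes 0.642% passed as higher and 0.187% as lower, so that 0 of 32 is close to these shares and not particular to the list. At an unadjusted p under 0.05 there were 5 (15.6%): OAS2, IRF7, IFIH1 and GBP2 with a higher and GBP1 with a lower fitted value, against 7.13% of all genes. The median coefficient for NTHi was −0.07 on the log2 scale, and −0.02 over all genes. Counted between single arrays against the floor, none of the 32 was 3-fold higher or 3-fold lower with NTHi in either subline. Over all genes, 0.126% were 3-fold higher and 0.0455% 3-fold lower in Siglec-14/THP-1, and 0.172% and 0.0253% in Siglec-5/THP-1. The fitted intervals, which rest on variance pooled over probe sets and not on replicates, give a limit for the brighter genes. Among the 22 above the floor on all arrays, the upper bound of the 95% interval lay under 2-fold for 21 and reached 2.01-fold for IRF7. Among the other 10 it lay under 3-fold for 8, and it reached 15.4-fold for IFI44L and 7.35-fold for OAS2.

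Direction alone was mixed. Of the 22 brighter genes, 9 (40.9%) had a higher signal with NTHi in both sublines, 4 (18.2%) a lower signal in both, and 9 (40.9%) opposite directions. Over all genes above the floor, 20.8% were higher in both, 26.1% lower in both and 53.2% opposite. Over the same hours, genes that NF-κB controls rose in the same cells, and these were chosen with their values known. NFKBIA, which encodes the inhibitor of NF-κB, had 3393 in Siglec-14,NTHi[+] and 1259 in Siglec-14,NTHi[−], and 1716 in Siglec-5,NTHi[+] and 333 in Siglec-5,NTHi[−]. TNF had 57.9 and 21.5 in Siglec-14/THP-1 with and without NTHi, and 25.9 and 3.54 in Siglec-5/THP-1. NFKBIA was 2.70-fold higher with NTHi in Siglec-14/THP-1 and 5.16-fold higher in Siglec-5/THP-1. Its limma coefficient for NTHi, which averages over both sublines, was 1.90 (log2). TNF was 2.70-fold higher with NTHi in Siglec-14/THP-1 and at least 1.62-fold higher in Siglec-5/THP-1, and it was called higher in the same fit, which uses the signal under the floor as it stands. The chemokine CCL20 was 4.55-fold higher with NTHi in Siglec-14/THP-1 and 7.28-fold higher in Siglec-5/THP-1. Calls for NTHi rest on the trend and on the subline term: 0 probe sets of the array passed without either of them.

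**Figure D2:**
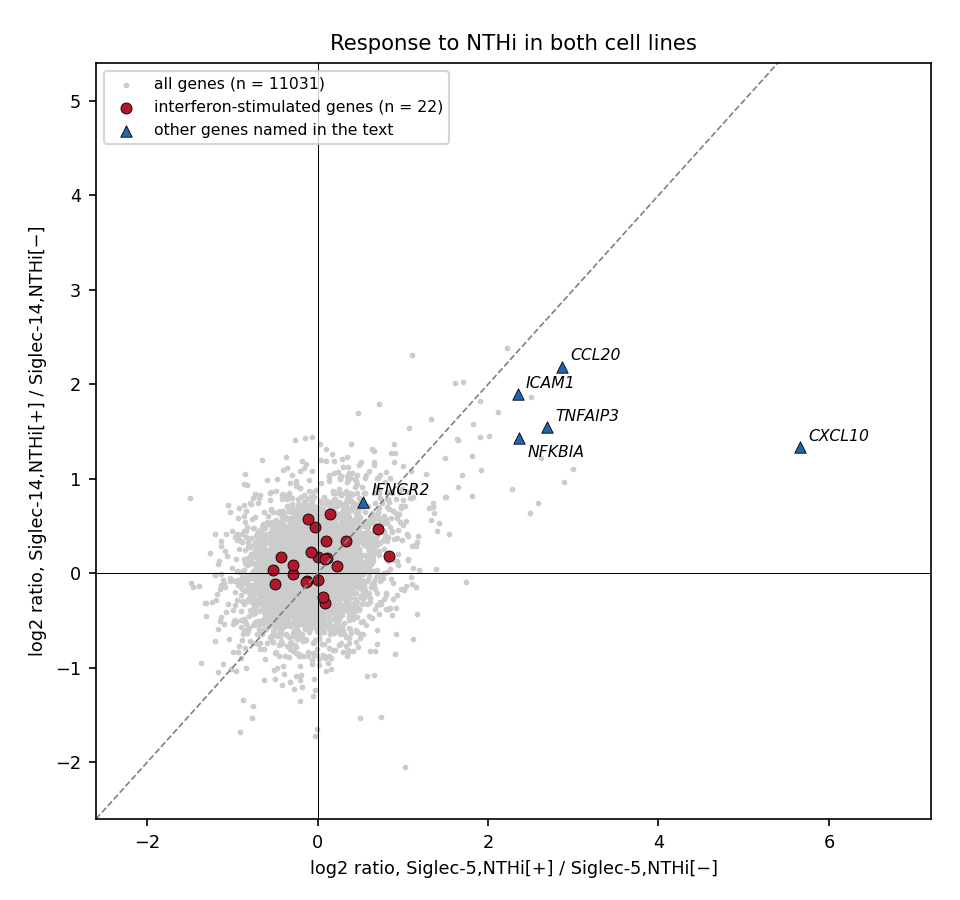
Log2 ratio of NTHi[+] to NTHi[−] in Siglec-14/THP-1 (y axis) against that in Siglec-5/THP-1 (x axis), for the 22 interferon-stimulated genes above the floor on all arrays (red circles), named other genes (blue triangles) and all 11031 genes above the floor (grey). The interferon-stimulated genes lie within the grey cloud around 0, and CXCL10, CCL20, ICAM1, TNFAIP3 and NFKBIA lie to the upper right.

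The sublines differed in part of the list. In the shared fit, 9 genes were higher in Siglec-14/THP-1 (ISG20, OAS1, OAS3, IRF1, IRF9, IFI6, XAF1, GBP2 and PARP9) and 1, HERC5, was lower, which is 28.1% and 3.12% of the 32. Over all genes, 4.24% were higher and 3.20% lower. Among the 22 genes above the floor on all arrays, which leave out ISG20, 8 (36.4%) were higher and 1 (4.55%) lower. Of all 11031 genes that reached the floor on every array, 5.96% passed as higher and 5.39% as lower. The median coefficient was 0.53 over the list and −0.02 over all genes. In both conditions, 23 of the 32 (71.9%) had the higher signal in Siglec-14/THP-1, as did 28.3% of all genes, and 2, IFI35 and HERC5, had the lower signal in both. Against the floor, 0 genes were 3-fold higher or lower in Siglec-14/THP-1, either with or without NTHi. Over all genes, 1.08% were 3-fold higher and 0.0253% 3-fold lower with NTHi, and 0.814% and 0.0759% without it. With NTHi left out of the fit, GBP2 and XAF1 were the 2 of the 9 that passed and HERC5 did not pass. Without limma's intensity trend none of the 10 passed, nor did any probe set of the array. With the mean over the probe sets of a gene, ISG20, OAS1, OAS3 and PARP9 no longer passed. OAS3 and IRF9 missed the threshold after a pseudocount of 16 (adjusted p = 0.0605 and 0.0649), and IRF9 also after quantile normalization (adjusted p = 0.0535), in the same limma fit.

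Each subline is 1 cell line, so its other differences cannot be told apart from the Siglec it expresses. Cell markers also differed between the sublines in the same fit. Of the 14 monocyte markers, ITGAM and TYROBP were higher and MPO and CTSG, granule proteins of immature myeloid cells, were lower in Siglec-14/THP-1. That is 14.3% in each direction, against 4.24% and 3.20% of all genes. The summed signal of the 14 markers was 20372, 18211, 21452 and 21954 in Siglec-14,NTHi[+], Siglec-14,NTHi[−], Siglec-5,NTHi[+] and Siglec-5,NTHi[−]. The 6 markers of plasmacytoid dendritic cells, which make much interferon, summed to 439, 324, 301 and 331. Of these, 4 reached the floor on at least 1 array, and the defining markers CLEC4C and LILRA4 were below it on all arrays. TCF4 had 148, 147, 174 and 209 and SPIB had 51.9, 42.5, 55.9 and 26 in the same order. Neither passed between the sublines. Of the same 6, GZMB was called higher in Siglec-14/THP-1, with 49.4 and 55.9 there with and without NTHi, against 1.67 and 2.70 in Siglec-5/THP-1, at least 3.08-fold and at least 3.49-fold. IL3RA had 183 in Siglec-14,NTHi[+], 68.6 in Siglec-14,NTHi[−], 67.7 in Siglec-5,NTHi[+] and 81.1 in Siglec-5,NTHi[−] and did not pass. COL1A1, a collagen chain and 1 of 4 fibroblast markers, was called higher in Siglec-14/THP-1, with 257 and 266, against 132 and 141 in Siglec-5/THP-1. It was the only 1 of the 4 that reached the floor on any array. Their part in the subline differences was not tested. In RNA of whole cultures, fewer cells of a kind and less RNA per cell cannot be told apart.

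**Figure D3:**
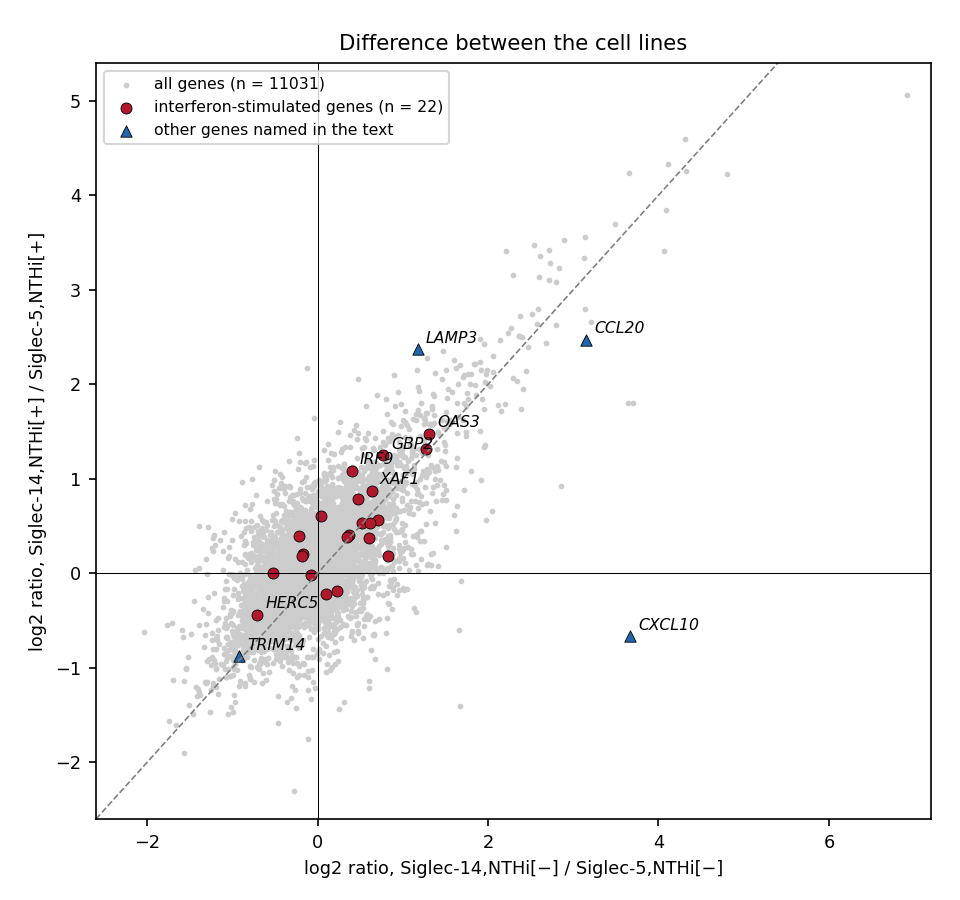
Log2 ratio of Siglec-14/THP-1 to Siglec-5/THP-1 with NTHi (y axis) against that without NTHi (x axis), for the 22 interferon-stimulated genes above the floor on all arrays (red circles), named other genes (blue triangles) and all 11031 genes above the floor (grey). 14 of the 22 lie above 0 on both axes, and 2 lie below 0 on both.

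**Figure D4:**
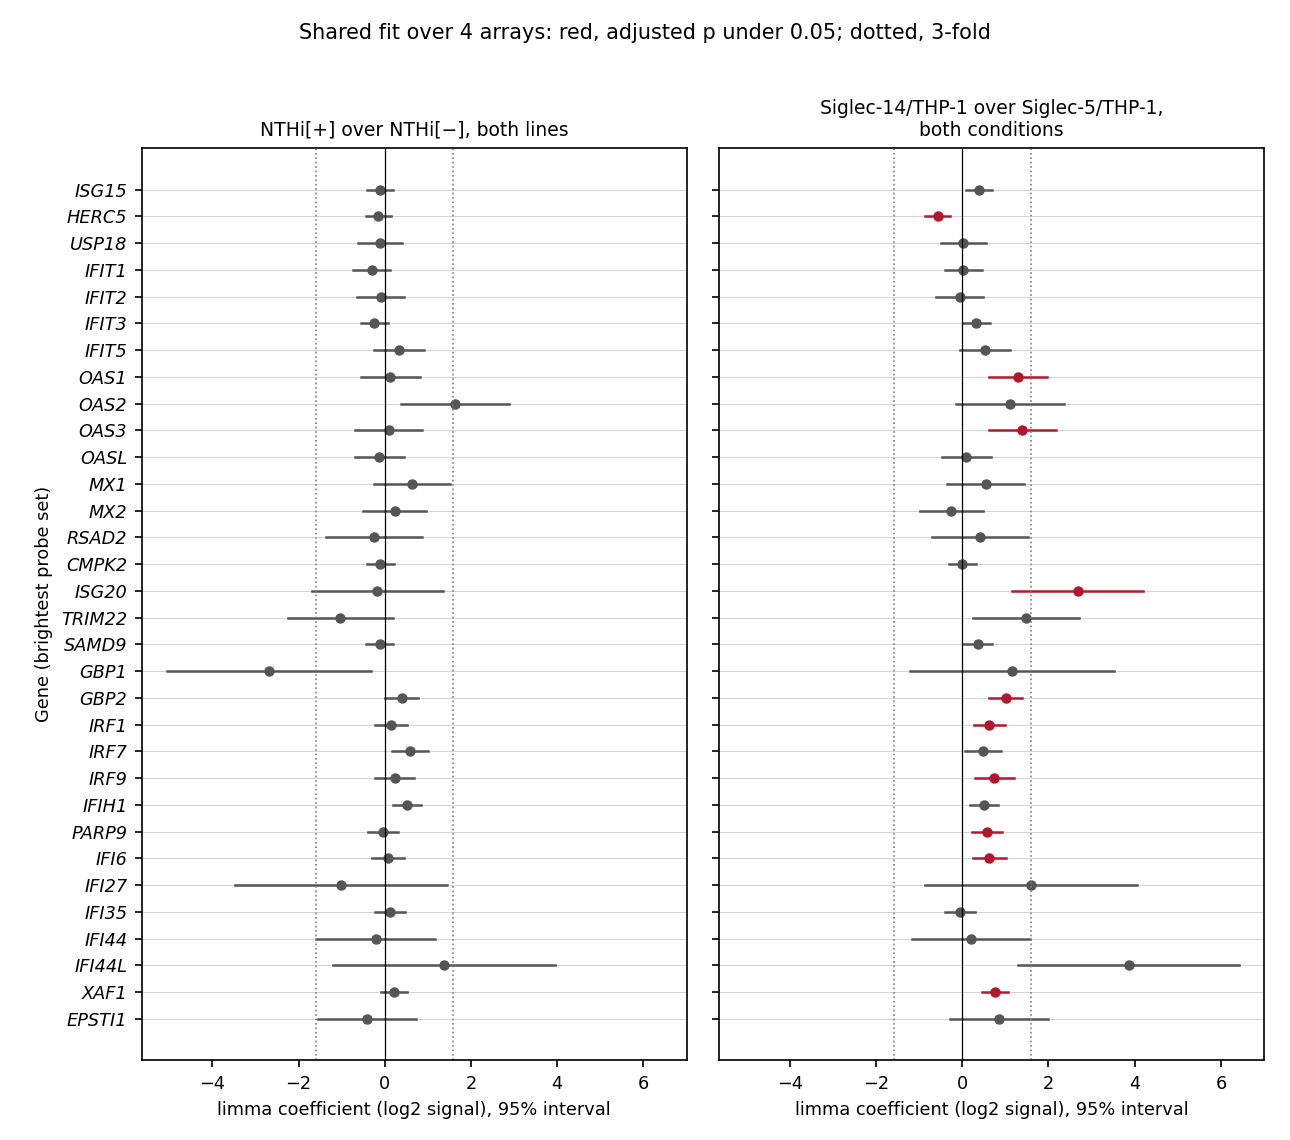
limma coefficients (log2 signal, points) with 95% intervals (lines) of the 32 interferon-stimulated genes, for NTHi[+] over NTHi[−] on the left and Siglec-14/THP-1 over Siglec-5/THP-1 on the right, with red where the adjusted p is under 0.05 and dotted lines at 3-fold. No gene is red on the left, and 10 are red on the right, 9 to the right of 0 and HERC5 to its left.

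The ISG15 pathway held both bright and flat genes. ISG15, a ubiquitin-like protein that is released and attached to other proteins, had signals of 251 in Siglec-14,NTHi[+] and 267 in Siglec-14,NTHi[−], and of 190 in Siglec-5,NTHi[+] and 207 in Siglec-5,NTHi[−]. It was slightly lower with NTHi in both sublines, and its NTHi coefficient was −0.10 ± 0.16 (SE). The interval for NTHi ran from 0.751-fold to 1.15-fold. ISG15 was 1.32-fold higher in Siglec-14/THP-1 with NTHi and 1.29-fold higher without it, which did not pass as deposited (limma adjusted p = 0.171) and did so with scaling on the trimmed mean (adjusted p = 0.0125) and after quantile normalization (adjusted p = 0.0229). USP18, the protease that removes ISG15 and damps the receptor, had 48.2 and 60.0 in Siglec-14/THP-1 with and without NTHi, and 54.7 and 51.3 in Siglec-5/THP-1. HERC5 was the 1 gene called lower in Siglec-14/THP-1. Its signals were 307 in Siglec-14,NTHi[+], 309 in Siglec-14,NTHi[−], 415 in Siglec-5,NTHi[+] and 506 in Siglec-5,NTHi[−], with no overlap of the sublines. The subline coefficient of HERC5 was −0.57 ± 0.15 (SE, log2, limma adjusted p = 0.00392). Its promoter held 3 matches of the ISRE core, some of them overlapping, as did that of ISG15, where they overlap in a continuous run.

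The IFIT proteins, which bind foreign RNA and block its translation, gave no gene that passed for NTHi or between the sublines. IFIT1 had 75.4 in Siglec-14,NTHi[+] and 81.4 in Siglec-14,NTHi[−], and 65.3 in Siglec-5,NTHi[+] and 92.0 in Siglec-5,NTHi[−]. IFIT1 was lower with NTHi in both sublines, and the NTHi coefficient was −0.30 ± 0.22 (SE), with an upper bound of 1.09-fold. IFIT3, the partner that stabilizes IFIT1, had 244 and 238 in Siglec-14/THP-1 with and without NTHi, and 160 and 230 in Siglec-5/THP-1. The sign of its ratio differed between the sublines. IFIT2 lay between 44.5 and 53.1 on all arrays. IFIT5 had 59.2 and 46.6 in Siglec-14/THP-1 and 41.0 and 32.5 in Siglec-5/THP-1, with and without NTHi, and was the 1 member of the family with a higher signal with NTHi in both.

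The OAS enzymes, which make the messenger that activates RNase L upon double-stranded RNA, gave 2 of 4 genes that were higher in Siglec-14/THP-1, OAS1 and OAS3. OAS1 had 57.2 in Siglec-14,NTHi[+] and 51.3 in Siglec-14,NTHi[−], and 23.0 in Siglec-5,NTHi[+] and 21.3 in Siglec-5,NTHi[−]. The sublines did not overlap, and the difference was 2.49-fold with NTHi and 2.41-fold without (coefficient 1.29 ± 0.35 SE, limma adjusted p = 0.00638). OAS3 showed the same order, with 48.7 and 43.2 in Siglec-14/THP-1 and 17.5 and 17.4 in Siglec-5/THP-1, with and without NTHi (1.39 ± 0.40 SE, limma adjusted p = 0.0133). OAS1 and OAS3 neighbour each other in the genome, with OAS2 next to them. On the dimmer probe set of OAS1, the signals were 35.3 and 34.2 in Siglec-14/THP-1 and 21.7 and 33.8 in Siglec-5/THP-1, so that the sublines were nearly equal without NTHi. OAS2 had 26.5 in Siglec-14,NTHi[+] and 16.7 in Siglec-14,NTHi[−], and 23.8 in Siglec-5,NTHi[+] and 3.97 in Siglec-5,NTHi[−]. It was 1.59-fold higher with NTHi in Siglec-14/THP-1 and at least 1.48-fold higher in Siglec-5/THP-1, and its NTHi coefficient, 1.62 ± 0.64 (SE), did not pass (limma adjusted p = 0.470). OASL, a relative without the enzyme activity that supports RNA sensing, had 49.96 and 44.3 in Siglec-14/THP-1 and 38.1 and 51.3 in Siglec-5/THP-1, with and without NTHi.

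Of 7 other antiviral effectors, ISG20 alone was called between the sublines, and 5 lay near the floor while CMPK2 and SAMD9 were brighter. MX1, a GTPase that traps viral particles, had 35.9 and 21.9 in Siglec-14/THP-1 with and without NTHi, and 23.2 and 15.9 in Siglec-5/THP-1. That is 1.64-fold in Siglec-14/THP-1 and at least 1.45-fold in Siglec-5/THP-1, and the NTHi coefficient was 0.63 ± 0.45 (SE). MX2, its nuclear relative, lay between 23.9 and 34.3. RSAD2 (viperin), which makes a chain-terminating nucleotide, lay between 12.3 and 19.4. CMPK2, a nucleotide kinase beside it in the genome, lay between 193 and 236, with an NTHi interval that ran from 0.751-fold to 1.16-fold. ISG20, an exonuclease for RNA, had 28.8 in Siglec-14,NTHi[+] and 25.5 in Siglec-14,NTHi[−], against 3.54 in Siglec-5,NTHi[+] and 5.06 in Siglec-5,NTHi[−]. It reached the floor in Siglec-14/THP-1 alone, and was at least 1.80-fold higher there with NTHi and at least 1.59-fold higher without. Its call in the limma fit (adjusted p = 0.0156) uses both signals under the floor as they stand, so its coefficient is no measure of size. Its other probe set reached at most 1.91. TRIM22 had 21.3 and 28.4 in Siglec-14/THP-1 and 4.99 and 15.6 in Siglec-5/THP-1, with and without NTHi. SAMD9, a restriction factor for poxviruses, lay between 174 and 242, and passed between the sublines only with scaling on the trimmed mean (0.41, limma adjusted p = 0.0245).

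Guanylate-binding proteins, GTPases that act on vacuoles and bacteria, gave 1 called gene. GBP2 had 187 in Siglec-14,NTHi[+] and 121 in Siglec-14,NTHi[−], and 78.9 in Siglec-5,NTHi[+] and 71.2 in Siglec-5,NTHi[−]. The sublines did not overlap, and GBP2 was 2.37-fold higher in Siglec-14/THP-1 with NTHi and 1.70-fold higher without (1.01 ± 0.19 SE, limma adjusted p = 1.6e-05). On its second probe set the signals were 71.0 and 77.4 in Siglec-14/THP-1, against 29.6 and 17.4 in Siglec-5/THP-1. GBP1 had 2.04 in Siglec-14,NTHi[+] and 18.7 in Siglec-14,NTHi[−], and 1.30 in Siglec-5,NTHi[+] and 5.89 in Siglec-5,NTHi[−]. All but 1 of these signals lie under the floor, and the probe set is of a kind that can bind related transcripts, so no fold is given.

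Among transcription factors and sensors, IRF7 and IFIH1 had the highest fitted values for NTHi of the 22 brighter genes. IRF7, the factor that amplifies interferon alpha production, had 116 in Siglec-14,NTHi[+] and 83.7 in Siglec-14,NTHi[−], and 89.6 in Siglec-5,NTHi[+] and 54.9 in Siglec-5,NTHi[−]. The signal with NTHi was higher in both sublines, 1.39-fold in Siglec-14/THP-1 and 1.63-fold in Siglec-5/THP-1, but the NTHi coefficient of 0.59 ± 0.21 (SE) did not pass (limma adjusted p = 0.352). IFIH1 (MDA5), a sensor of long double-stranded RNA, had 210 and 184 in Siglec-14/THP-1 with and without NTHi, and 185 and 104 in Siglec-5/THP-1. The array without NTHi of Siglec-5/THP-1 stood apart from the other 3. The NTHi coefficient of IFIH1 was 0.51 ± 0.17 (SE, limma adjusted p = 0.225), and it passed only with arrays scaled to the same median (0.57, adjusted p = 0.0412). Between the sublines IFIH1 did not pass as deposited (limma adjusted p = 0.0589) and did so with scaling on the trimmed mean (adjusted p = 0.0326) and among probe sets with a geometric mean above the floor (adjusted p = 0.0429). IRF1, a factor induced by interferon gamma through its GAS element, had 152 and 144 in Siglec-14/THP-1, against 103 and 88.2 in Siglec-5/THP-1, with and without NTHi. IRF9, the DNA-binding part of ISGF3, had 111 and 74.7 in Siglec-14/THP-1, against 52.5 and 56.7 in Siglec-5/THP-1. Both were called higher in Siglec-14/THP-1 (IRF1 0.63 ± 0.19 SE, limma adjusted p = 0.0186, and IRF9 0.74 ± 0.23 SE, adjusted p = 0.0307). PARP9, which with its partner DTX3L enhances interferon signalling, had 164 and 173 in Siglec-14/THP-1, against 113 and 113 in Siglec-5/THP-1. Its second probe set had 111 and 84.2 in Siglec-14/THP-1, against 92.6 and 121 in Siglec-5/THP-1, and the sign of the subline ratio thus differed between its probe sets without NTHi.

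Among the remaining genes, IFI6 and XAF1 were higher in Siglec-14/THP-1. XAF1 had 414 in Siglec-14,NTHi[+] and 327 in Siglec-14,NTHi[−], against 226 in Siglec-5,NTHi[+] and 211 in Siglec-5,NTHi[−]. It was 1.83-fold higher with NTHi and 1.55-fold higher without (0.75 ± 0.15 SE, limma adjusted p = 5.2e-05). IFI6, a mitochondrial protein that limits apoptosis, had 149 and 127 in Siglec-14/THP-1, against 86.6 and 91.2 in Siglec-5/THP-1 (0.63 ± 0.19 SE, limma adjusted p = 0.0247). IFI35 lay between 136 and 153 on all arrays. IFI44, IFI44L and IFI27, genes commonly used to score the interferon response in blood, reached at most 13.4, 7.44 and 12.5. IFI44L had 7.44 and 3.86 in Siglec-14/THP-1 and 0.69 and 0.198 in Siglec-5/THP-1, all below the floor, so that no fold is given. EPSTI1 had 22.2 and 21.9 in Siglec-14/THP-1, against 9.07 and 16.5 in Siglec-5/THP-1.

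Upstream of the list, the transcript of interferon beta was below the floor and both chains of its receptor were above it. IFNB1, interferon beta, had 0.759, 0.683, 0.555 and 1.35 in Siglec-14,NTHi[+], Siglec-14,NTHi[−], Siglec-5,NTHi[+] and Siglec-5,NTHi[−], all far below the floor. Of 24 measured genes for interferons and their receptors, 9 reached the floor on at least 1 array. IFNAR1 lay between 132 and 152 and IFNAR2 between 167 and 211. 1 of the 24 rose with NTHi, IFNGR2, a chain of the interferon gamma receptor, with 2488 in Siglec-14,NTHi[+] and 1471 in Siglec-14,NTHi[−], and 1430 in Siglec-5,NTHi[+] and 989 in Siglec-5,NTHi[−] (limma coefficient 0.64 ± 0.15 SE, adjusted p = 0.0086). Over all genes, 0.642% passed as higher for NTHi. IFNGR1, IFNGR2, IFNLR1 and IL10RB, all receptor chains, were higher in Siglec-14/THP-1 and none was lower. That is 16.7% and 0% of the 24, against 4.24% and 3.20% of all genes. IFNLR1 was below the floor in Siglec-5/THP-1 and at 18.0 and 20.8 in Siglec-14/THP-1 with and without NTHi. It was at least 1.13-fold and at least 1.30-fold higher there. Its call uses the signals of Siglec-5/THP-1, 1.14 and 1.34, as they stand. Of 16 genes for JAK-STAT and IRF signalling, 0 passed for NTHi, where 0.642% of all genes passed as higher and 0.187% as lower. At an unadjusted p under 0.05 there were 0 as well, against 7.13% of all genes. In a list of 16 genes, 0 is close to these shares. The kinase TYK2 alone differed between the sublines, with 497 and 411 in Siglec-14/THP-1, against 279 and 283 in Siglec-5/THP-1, with and without NTHi (0.69 ± 0.15 SE, adjusted p = 0.000223). That is 6.25% of the 16 higher and 0% lower, against 4.24% and 3.20% of all genes. JAK1 had 653 and 558 in Siglec-14/THP-1 and 508 and 441 in Siglec-5/THP-1 and did not pass.

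Of 20 genes for sensing and signalling toward interferon, 2 rose with NTHi and 0 fell, where 0.642% of all genes rose and 0.187% fell. IKBKE, a kinase of IRF3 that NF-κB also induces, had 304 and 204 in Siglec-14/THP-1 with and without NTHi, and 251 and 145 in Siglec-5/THP-1 (0.69 ± 0.16 SE, limma adjusted p = 0.00516). TRAF3, an adaptor between receptors and TBK1, had 455 and 334 in Siglec-14/THP-1, and 467 and 254 in Siglec-5/THP-1 (0.66 ± 0.15 SE, limma adjusted p = 0.00277). Between the sublines, TANK was higher and STING1, the adaptor for cytosolic DNA, was lower in Siglec-14/THP-1, 1 gene of the 20 each way, close to the 4.24% and 3.20% of all genes. STING1 had 185 and 192 there, against 289 and 288 in Siglec-5/THP-1. TLR4 had 54.9 and 65.4 in Siglec-14/THP-1 and 40.1 and 41.9 in Siglec-5/THP-1.

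**Figure D5:**
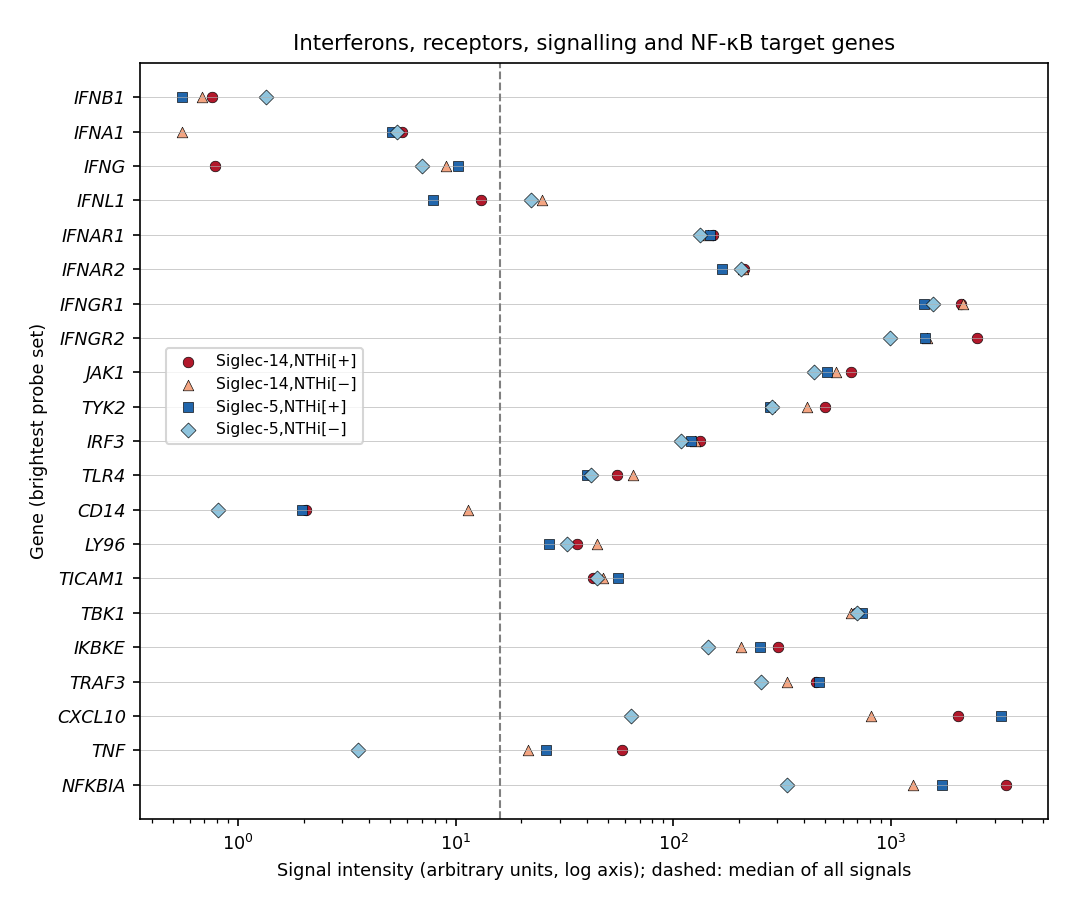
Signal intensity (log axis, arbitrary units) of 21 genes for interferons, receptors, signalling and NF-κB targets, with 1 marker for each of the 4 arrays and a dashed line at the median of all signals, 16.02. IFNB1 lies under 2 on all arrays, IFNAR1 and IFNAR2 lie above 100, and CXCL10, TNF and NFKBIA are spread widely by NTHi.

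A further 44 interferon-stimulated genes outside the list were measured, and 0 of them passed for NTHi in either direction. Over all genes 0.642% passed as higher and 0.187% as lower, so that 0 of 44 is close to these shares. At an unadjusted p under 0.05 there was 1 (2.27%), against 7.13% of all genes. Between the sublines, TRIM5, LAMP3 and RNF213 were higher and TRIM25, TRIM14 and NT5C3A lower in Siglec-14/THP-1. That is 6.82% of the 44 in each direction, near the 4.24% and 3.20% of all genes, and the median subline coefficient was 0.09, against 0.53 for the 32 genes of the list. LAMP3, a lysosomal membrane protein of maturing dendritic cells, had 150 and 84.9 in Siglec-14/THP-1 with and without NTHi, against 29.0 and 37.6 in Siglec-5/THP-1 (1.77 ± 0.25 SE, limma adjusted p = 1.41e-10). TRIM14, an adaptor of mitochondrial antiviral signalling, had 538 and 579 in Siglec-14/THP-1, against 990 and 1100 in Siglec-5/THP-1 (−0.90 ± 0.15 SE, limma adjusted p = 7.08e-08). Of 20 genes that lean toward interferon gamma, 2 rose with NTHi and 0 fell, where 0.642% of all genes rose and 0.187% fell. CXCL10, a chemokine that both interferons and NF-κB induce, had 2035 in Siglec-14,NTHi[+] and 807 in Siglec-14,NTHi[−], and 3220 in Siglec-5,NTHi[+] and 63.8 in Siglec-5,NTHi[−]. Its response was 2.52-fold in Siglec-14/THP-1 and 50.5-fold in Siglec-5/THP-1, and the difference between the responses was not tested. ICAM1, an adhesion molecule, had 625 and 168 in Siglec-14/THP-1, and 161 and 31.7 in Siglec-5/THP-1. CXCL10, CXCL11, WARS1 and ICAM1 were also higher in Siglec-14/THP-1 in the shared fit, although CXCL10 was 0.632 times as high there with NTHi. That is 20% of the 20 higher and 0% lower, against 4.24% and 3.20% of all genes. CXCL11 was below the floor in Siglec-5/THP-1, at 12 and 5.59 with and without NTHi, and its call uses these signals as they stand.

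The 19 genes with the word had a median NTHi coefficient of −0.11 and the 5 without it one of 0.15. For the sublines the medians were 0.53 and 0.74, with 4 genes called higher and 1 lower among the 19, and 4 higher and 0 lower among the 5. These groups are small and were not tested against each other.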

How the data were processed

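RNA from each of the 4 conditions went onto 1 Affymetrix GeneChip U133 Plus 2.0 array. The deposited table holds a linear signal intensity for every probe set, 54675 in all. By the study's methods, the authors quantified and standardized them on the cumulative signal with GeneChip Operating Software (version not given in the sources used here), and the sums of the arrays still differ. Signals were used as deposited. The annotation of the platform lists 1 gene for 41097 of them, several for 1801 and none for 11777, 0 symbols needed an update, and the 32 genes have 55 probe sets.

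limma 3.58.1 (R 4.3.3) was fitted to log2 signals of 54613 probe sets, without 62 controls and without a filter or pseudocount. eBayes used an intensity trend and gave infinite prior degrees of freedom, so that each variance is the value of the trend. The script was tested on simulated data. With 1 array per condition, the number of arrays limits the precision. Pairs of arrays were compared by 3-fold counts against the floor, with no test. Alternatives were 3 scalings, floors at the 25th and 75th percentile (4.09 and 105) and at 119, the 95th percentile of 72 probe sets of other tissues, filters, a pseudocount of 16, other thresholds and probe sets, and terms left out. All measured genes of the list are named. From other lists, genes are named that were called or 3-fold different, at most 6 per list, with pathway genes fixed by name. The genes and lists were chosen with earlier results of these data known. NFKBIA, TNFAIP3, CCL20, TLR4, CD14, CLEC4C, LILRA4, IL3RA, TCF4 and SPIB were named with their values known. Roles are background knowledge. Some items are not reported here.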

Additional observations from a re-analysis of the deposited data

Results flagged for a closer look

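With NTHi, 13 of the 32 interferon-stimulated genes (40.6%) moved in opposite directions in the sublines, against 51.1% of all genes. Each value is the log2 ratio with NTHi in Siglec-14/THP-1 minus that in Siglec-5/THP-1, from 1 array per condition, and the difference was not tested for any of them. In 9 the signal was higher with NTHi in Siglec-14/THP-1 and lower in Siglec-5/THP-1: IFIT3 (0.56), IFI44 (0.44), ISG20 (0.69), MX2 (0.52), OASL (0.61), IRF9 (0.69), IFI6 (0.30), CMPK2 (0.37) and EPSTI1 (0.88). In the other 4 the order was turned, with values of −0.32 for IFIT2, −2.04 for IFI27, −0.41 for USP18 and −0.08 for PARP9. Over all genes, the median log2 ratio with NTHi was 0.07 in Siglec-14/THP-1 and −0.10 in Siglec-5/THP-1, the same order as in the 9. IFI27 and IFI44 were below the floor on all arrays, and ISG20 and EPSTI1 on part of them, so that their values are no measure of size. IRF9 had 111 and 74.7 with and without NTHi in Siglec-14/THP-1 and 52.5 and 56.7 in Siglec-5/THP-1.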

How the results depend on the processing

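No result changed direction past the threshold. Of 278 pairs of a gene and a setting, 277 were unchanged for NTHi, where 0 genes were called as deposited, so these stayed uncalled. For the sublines 248 of 278 were unchanged, with 25 calls lost and 5 gained. Most of these pairs belong to genes without a call, so the 25 losses all fall on the 9 higher genes and the 1 lower gene. The sign changed without a call in 6 pairs for NTHi and in 11 for the sublines. With arrays scaled to the same median, 1 gene was higher with NTHi (IFIH1), against 0 with signals as deposited. For the sublines, 9 higher genes became 5 with the mean over the probe sets of a gene, 2 with NTHi left out and 0 without the intensity trend, 7 with the pseudocount and 12 on the trimmed mean, and the 1 lower gene became 0 without the trend and with NTHi left out. Over all probe sets, 1466 were higher and 1119 lower in Siglec-14/THP-1 as deposited, 1624 and 3396 with median scaling, 2424 and 2324 with scaling on the trimmed mean, and 2165 and 2221 with quantile normalization. For NTHi, 215 were higher and 66 lower as deposited, 422 and 145 with the trimmed mean, and 0 without the trend or with subline left out. With the floor at the 25th percentile, the 3-fold counts, all 0 at the median floor, were 2 lower with NTHi in Siglec-14/THP-1, 1 higher and 1 lower with NTHi in Siglec-5/THP-1, and 2 and 4 higher in Siglec-14/THP-1 with and without NTHi. At 2-fold, 4 and 2 genes were higher in Siglec-14/THP-1 with and without NTHi, and on any probe set 1 was higher without it. The median log2 ratio for NTHi in Siglec-5/THP-1 was −0.01, and 0.09 on the trimmed mean. Between the sublines with NTHi it was 0.55, and 0.44 with median scaling, 0.44 with quantile normalization and 0.39 against the floor. Without NTHi it was 0.47, and 0.61 on the trimmed mean and 0.36 against the floor. Over all genes as deposited, the median log2 ratio for NTHi was 0.07 in Siglec-14/THP-1 and −0.10 in Siglec-5/THP-1. The responses thus lay apart over all genes as well. Between the sublines, the median over all genes was 0.06 with NTHi and −0.10 without it. For the list, the median difference between the responses was 0.17, and 0.07 against the floor. The cause of these changes was not tested. Signals near the floor limit 10 of the 32 genes. Against the stricter level of 119 from genes of other tissues, only 10 of the 32 had a higher mean signal. Of the genes called between the sublines, these include IRF1, XAF1, PARP9 and HERC5 alone. The subline term pairs the NTHi arrays within each subline, and no other pairing of the arrays is given.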
